A study of Mus musculus with 10 samples.

Results

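The 38 genes described here encode the enzymes, transporters and regulators that make sterols and fatty acids. They were taken as the protein-coding rows of the deposited table whose gene name is on a fixed list, and all 38 were found among 56748 genes. They fall into a sterol branch of 21 genes and a fatty acid branch of 17 genes. The samples were mouse colon organoids, cultures of colon epithelium grown from crypt cells. WY-14643, a synthetic agonist of the fatty acid receptor PPARα, was given at 100 µM for 2 days starting 3 days after passage in 5 libraries (replicates 6 to 10), and 5 libraries (replicates 1 to 5) received vehicle only. The labels name no strain, sex, age, organoid line or culture day, and nothing says that the libraries came from separate animals or cultures. The spread behind each p-value may therefore be technical. No group lacked or blocked PPARα, so no difference can be assigned to that receptor.

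Both branches start from acetyl-CoA in the cytosol. Citrate leaves the mitochondrion and is cleaved to acetyl-CoA, which is either condensed into mevalonate and on to squalene, lanosterol and cholesterol, or carboxylated and extended to palmitate, which is then elongated and desaturated. Transcription of both sets of genes is driven by the SREBP factors, membrane proteins that are cut and sent to the nucleus when sterols run low. SREBP-2, from Srebf2, mostly serves the sterol genes, and SREBP-1c, from Srebf1, mostly the fatty acid genes. Intestinal epithelium makes cholesterol at a high rate and renews its membranes constantly.

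Levels are given in FPKM, which corrects for the listed length of each gene, so genes can be compared roughly with each other. Reads shared with copies or overlapping genes may still shift the level of a gene. Where group means are given together, vehicle comes first and WY-14643 after it, each ± SD over 5 libraries. Behind them stood 15618244 to 29271304 recovered reads per library. All 9 epithelial marker genes were expressed above the filter of a mean of 0.5 FPKM, whereas 0 of 7 fibroblast, 0 of 4 endothelial and 0 of 4 neural or glial markers were. Of the 7 immune markers only Cd68 was, and Cd3e and Lyz2 were at 0. The colonocyte marker Car4 was at 0 in all 10 libraries. Among 16 genes that PPARα is known to induce, 15 were tested, and the mean of all 15 was higher after WY-14643 (median log2 fold change 0.61). Earlier results of these data were known when that list was made.

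After WY-14643 the sterol and fatty acid synthesis genes stood slightly higher as a group, and none passed the test. Of the 38 members, 37 reached the filter. The exception was Thrsp, a lipogenic regulator of liver and fat, which was at 0.0267 FPKM in vehicle replicate 1, between 0.0513 and 0.0575 FPKM in WY-14643 replicates 6, 7 and 9, and at 0 elsewhere. Of the 37, 36 had a higher mean of log2(FPKM + 1), where 47.1% of all tested genes did. The median log2 fold change was 0.15, against -0.01 over all 13607 tested genes. Members were chosen with earlier results of these data known, so these contrasts are description only. Among further tested synthesis genes outside the list, 3 of 7 for sterols and isoprenoids had a higher mean on the log2 scale. For fatty acids and glycerolipids 15 of 19 did. Because the 37 genes vary together across libraries, the count of 36 does not stand for 36 separate observations. Without vehicle replicate 4 it was 25, and without WY-14643 replicate 7 it was 29.

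Markers of epithelial cell states were read beside the members. Of the 6 colonocyte markers 4 were tested and 4 had a higher mean (median log2 fold change 0.32), among them Car1, a carbonic anhydrase, with 1.02. Of the 6 goblet cell markers 5 were tested and 1, Fcgbp, had a higher mean on the log2 scale (median -0.28). Within the matched pairs described below, the goblet markers were mixed. The mucin gene Muc2 and Clca1 were lower in 5 of 5, whereas Fcgbp was higher in 4, Tff3 in 2 and Zg16 in 1. The share of all tested genes lower in 5 of 5 was not counted. None of these passed in limma or voom, with or without pairs. Of 6 stem and cycling genes 5 were tested and 3 had a higher mean on the log2 scale (Ascl2, Mki67 and Top2a). The stem cell receptor Lgr5 was at 4.79 ± 0.852 and 3.79 ± 0.554 FPKM, lower in 5 of 5 pairs. It fell with voom in the matched design (adjusted p = 0.0446), as did 49 of the 13607 tested genes. Ascl2 went the other way, at 1.53 ± 0.747 and 2.01 ± 0.892 FPKM, higher in 4 of 5 pairs, and did not pass. Their part in the members' values was not tested.

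In limma on log2(FPKM + 1), with Benjamini-Hochberg adjustment over all tested genes, 0 of the 37 were called, as were 0.0% of all tested genes. Every member had an adjusted p of 1. At an unadjusted p under 0.05 there were also 0 members, against 1.51% of all tested genes. Limma-voom on recovered reads gave 0 members by either measure, against 172 (unadjusted) and 0 (adjusted) of the 13607 tested genes. In 0 members did the groups fail to overlap, against 0.353% of tested genes. Changes of this size lay within the spread of each group.

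That spread was large and followed the library numbers. Deviations from the group mean were shared between vehicle replicates 1, 2, 3, 4 and 5 and WY-14643 replicates 6, 7, 8, 9 and 10, respectively. The correlations of these deviations over tested genes other than the members were 0.423 to 0.782, and the highest for any unmatched vehicle and WY-14643 libraries was 0.0604. Over the members alone the matched correlations were 0.814 to 0.96. The labels state no such pairing, and genes are not independent replicates. For this reason each member was also read within the 5 matched pairs. Where a single library is left out, its matched partner stays in the other group, so such values also carry the spread between pairs.

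Within the matched pairs 17 of the 37 members were higher in 5 of 5 pairs, where 5.63% of all tested genes were, and 0 were lower in 5 of 5. A further 11 were higher in 4 of 5. The shares of all tested genes lower in 5 of 5 and higher in 4 of 5 were not counted. In the matched limma fit 0 members passed, where 0.316% of tested genes did in either direction, and the smallest adjusted p was 0.0656, for Lss. At an unadjusted p under 0.05, 17 members were higher and 0 lower, and 5.48% of tested genes were higher by that measure. With voom on recovered reads in the same matched design 6 members rose, where 1.4% of tested genes did. These were Hmgcs1, Lss, Hsd17b7, Insig1, Fads1 and Me1. Of these 6, 0 passed in the fits on FPKM. Without replicates 3 and 8, 3 members passed (Lss, Hsd17b7 and Insig1), and without replicates 4 and 9, 3 passed (Lss, Insig1 and Scd1). Lss and Insig1 were called with any single pair left out, whereas Me1 was called without replicates 1 and 6 but not with any other pair left out.

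**Figure D1:**
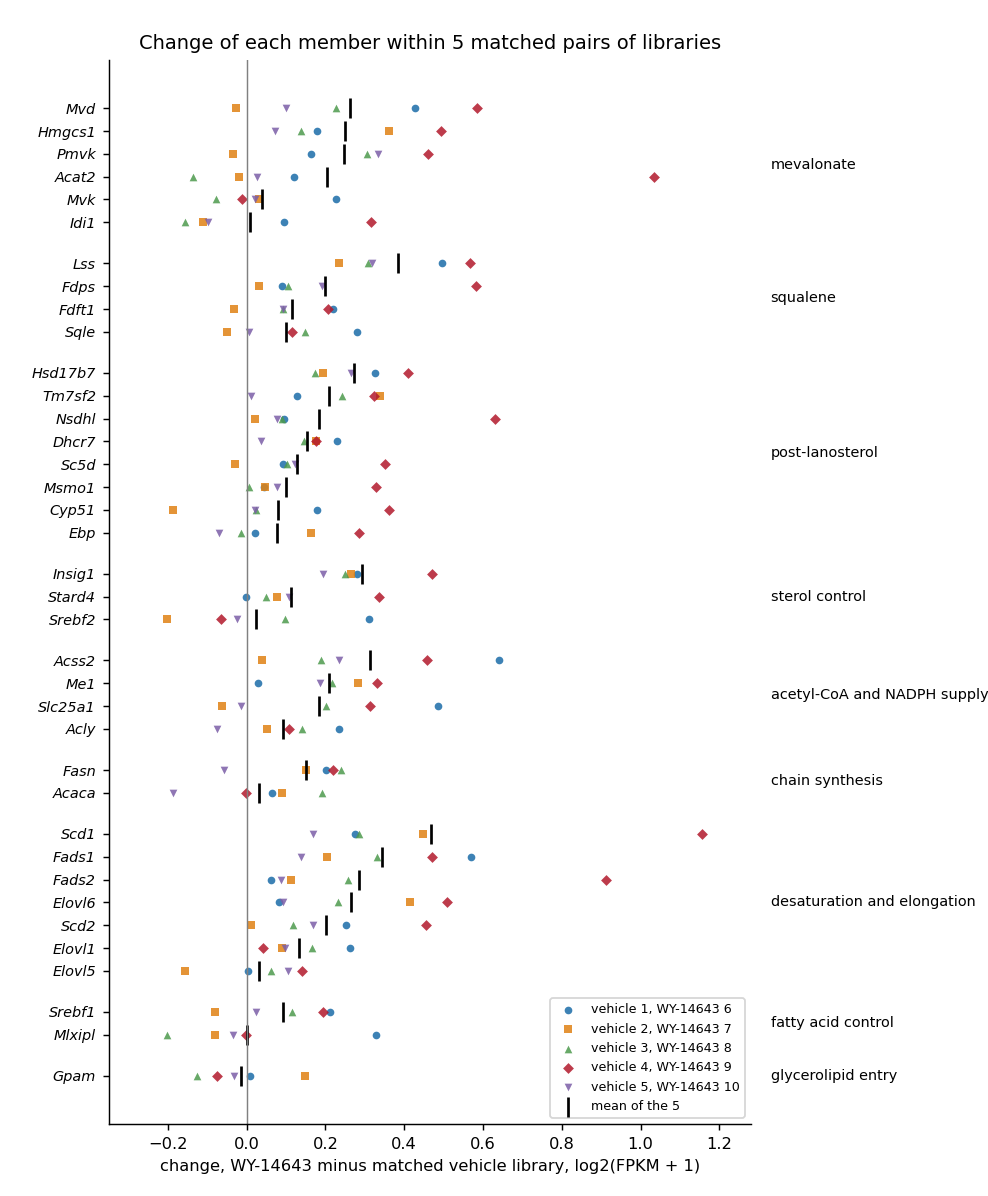
Change of each of the 37 tested members from the matched vehicle library to the WY-14643 library, as a difference of log2(FPKM + 1) on the horizontal axis, with 1 coloured symbol for each of the 5 pairs and a black bar for their mean. Genes are grouped by role. Most symbols lie between 0 and 0.50, and the red symbols of vehicle replicate 4 and WY-14643 replicate 9 reach 1.16 for Scd1, 1.03 for Acat2 and 0.91 for Fads2.

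The first steps of the sterol branch turn acetyl-CoA into mevalonate and then into the isoprene unit. Hmgcs1, the cytosolic synthase that makes HMG-CoA, was at 106, 96.1, 84.5, 66.4 and 55.7 FPKM in vehicle replicates 1 to 5 and at 119.6, 124, 93.1, 93.9 and 58.7 FPKM in WY-14643 replicates 6 to 10. Each WY-14643 library was above its matched vehicle library, and the groups overlapped. The log2 fold change was 0.25 ± 0.23 (limma SE; ± 0.07 in the matched fit), with a matched adjusted p of 0.248 and 0.0442 with voom. Leaving out vehicle replicate 5 gave 0.12, and leaving out WY-14643 replicate 10 gave 0.42. Mvd, the decarboxylase that yields isopentenyl diphosphate, was at 42.1, 83, 46.5, 25.9 and 40.3 FPKM in vehicle replicates 1 to 5 and 57, 81.5, 54.6, 39.3 and 43.3 FPKM in WY-14643 replicates 6 to 10. It was higher in 4 pairs and slightly lower in replicate 7 than in replicate 2. Pmvk, which phosphorylates mevalonate phosphate, had group means of 18 ± 5.93 and 21.2 ± 4.92 FPKM (SD, n = 5 each), and Mvk, the kinase before it, 14.5 ± 2.58 and 15 ± 3.26 FPKM. Acat2, the cytosolic thiolase, was at 59.8, 74.4, 61.3, 12 and 41.7 FPKM in vehicle and 65, 73.4, 55.7, 25.6 and 42.5 FPKM in WY-14643 libraries. Its log2 fold change of 0.21 rested mainly on replicates 4 and 9, which differed by 1.03, and it was -0.23 without vehicle replicate 4. Idi1, the isomerase that sets up chain building, had means of 53.2 ± 17.2 and 52.9 ± 16.4 FPKM and a log2 fold change of 0.01, and its pseudogene Idi1-ps1 was listed at a mean of 4.35 FPKM, so reads of the pair may be shared.

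Squalene is built from isoprene units and closed into lanosterol by Lss. This cyclase had the largest difference of the sterol branch. It was at 18, 38.1, 22.3, 16.9 and 17.4 FPKM in vehicle replicates 1 to 5 and at 25.9, 45, 27.9, 25.5 and 22 FPKM in WY-14643 replicates 6 to 10. All 5 pairs were higher after WY-14643, yet vehicle replicate 2 was above 4 of the 5 WY-14643 libraries. The log2 fold change was 0.39 ± 0.24 (limma SE; ± 0.06 matched), with an adjusted p of 0.0656 in the matched fit and 9.42e-04 with voom. Without WY-14643 replicate 7 the log2 fold change was 0.22, and without vehicle replicate 2 it was 0.58. Fdps, the farnesyl diphosphate synthase, was listed at 3.58 ± 1.6 and 4.12 ± 1.25 FPKM, the lowest value of the sterol branch, and was higher in 5 of 5 pairs. Gm43738, a protein-coding gene on the same strand listed at 0 FPKM, overlaps Fdps. How shared reads were counted is not given, so the true level of Fdps may be higher. Fdft1, the squalene synthase, was at 50.6 ± 12.4 and 54.5 ± 10.1 FPKM, and Sqle, the epoxidase that introduces oxygen into squalene, at 47.4 ± 12.3 and 50.6 ± 10.7 FPKM. Both were higher in 4 of 5 pairs, the exception being replicates 2 and 7, and neither passed in any fit.

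The 8 enzymes that turn lanosterol into cholesterol all had a higher mean, with log2 fold changes from 0.08 to 0.27. Hsd17b7, which reduces the 3-keto group during demethylation, was at 19.2, 19, 14.7, 13.7 and 11.2 FPKM in vehicle and 24.3, 21.9, 16.8, 18.5 and 13.6 FPKM in WY-14643 libraries. It was higher in 5 of 5 pairs, with a matched adjusted p of 0.0924 and 0.01 with voom. The log2 fold change was 0.27 ± 0.18, and 0.17 without vehicle replicate 5. Cyp51, the lanosterol demethylase and the most abundant member of the branch, was at 95.6, 149, 94.4, 73.9 and 63.4 FPKM in vehicle and 108, 131, 95.9, 95.3 and 64.3 FPKM in WY-14643 libraries. The level was higher in 4 of 5 pairs and lower in replicate 7 than in replicate 2. Tm7sf2, a sterol reductase, had means of 8.23 ± 1.97 and 9.71 ± 2.66 FPKM, Nsdhl, a decarboxylating dehydrogenase, 35.7 ± 11.3 and 39.5 ± 7.83 FPKM, and Dhcr7, which makes cholesterol from 7-dehydrocholesterol, 11.9 ± 3.92 and 13.3 ± 4.24 FPKM. These 3 and Msmo1, the methyl oxidase, at 51.7 ± 12.3 and 55.3 ± 11.9 FPKM, were higher in 5 of 5 pairs. Sc5d, the C5 desaturase, at 30.3 ± 9.88 and 32.6 ± 7.87 FPKM, was higher in 4 pairs. Ebp, the isomerase, at 24.4 ± 5.9 and 25.5 ± 4.3 FPKM, was higher in 3.

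Among the regulators of the sterol branch, Insig1 had the largest difference. Insig1 holds the SREBP escort protein in the endoplasmic reticulum and is itself a target of SREBP. It was at 47.9, 74.6, 44, 42.7 and 36 FPKM in vehicle replicates 1 to 5 and 58.4, 89.8, 52.6, 59.5 and 41.4 FPKM in WY-14643 replicates 6 to 10. All 5 pairs were higher, by 0.20 to 0.47 on the log2 scale, while the groups overlapped. The log2 fold change was 0.29 ± 0.23 (limma SE; ± 0.05 matched), with an adjusted p of 0.083 in the matched fit and 0.00514 with voom. It was 0.14 without WY-14643 replicate 7 and 0.45 without vehicle replicate 2. Srebf2, which encodes the main factor of the branch, was at 49.9, 80.9, 59.2, 67.5 and 55.9 FPKM in vehicle and 62.2, 70.2, 63.4, 64.5 and 55 FPKM in WY-14643 libraries. It was higher in 2 pairs and lower in 3, with a log2 fold change of 0.02 ± 0.13. Stard4, a carrier of cholesterol between membranes, was at 54.7, 97.8, 65.8, 36.6 and 74.9 FPKM in vehicle and 54.7, 103, 68.1, 46.4 and 80.8 FPKM in WY-14643 libraries. Its values repeated closely within each pair, and the largest difference was that between replicates 4 and 9.

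**Figure D2:**
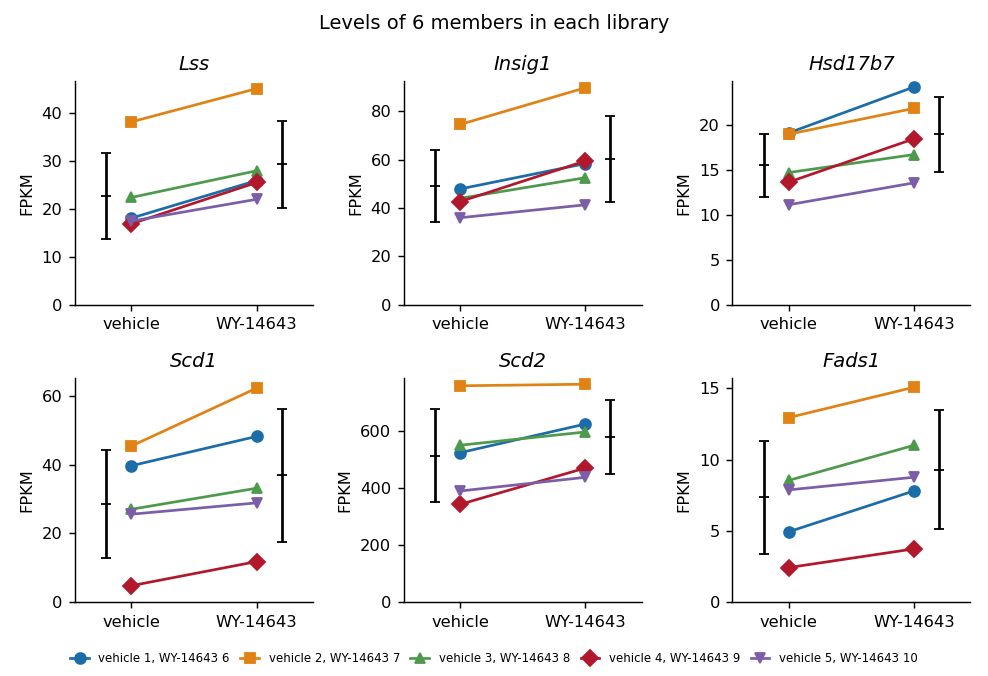
FPKM of 6 members in the vehicle and WY-14643 libraries, with lines joining matched libraries and black bars for the group mean and SD (n = 5). The lines of Lss, Insig1, Hsd17b7, Scd1, Scd2 and Fads1 all slope upwards, and in each panel the vehicle and WY-14643 libraries overlap.

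In the fatty acid branch the supply of acetyl-CoA and reducing power comes first. Slc25a1, the mitochondrial citrate carrier, was at 55.8, 110.4, 74.3, 55.3 and 72.6 FPKM in vehicle and 78.6, 106, 85.5, 69 and 71.9 FPKM in WY-14643 libraries, higher in 3 pairs and lower in 2. Acly, which cleaves citrate, had means of 54.3 ± 11.4 and 58.1 ± 13.8 FPKM (SD, n = 5 each). Acss2, which activates acetate, was at 4.04, 14.6, 7.64, 4.51 and 3.59 FPKM in vehicle and 6.85, 15.1, 8.86, 6.57 and 4.4 FPKM in WY-14643 libraries, higher in 5 of 5 pairs (matched adjusted p = 0.266, limma). Me1, the malic enzyme that yields NADPH, was at 80.6, 102, 80.9, 68.3 and 181 FPKM in vehicle and 82.3, 125, 94.1, 86.2 and 206 FPKM in WY-14643 libraries. Its highest values were in replicates 5 and 10. Within pairs the level was higher in 5 of 5, with a log2 fold change of 0.21 ± 0.31 (limma SE; ± 0.05 matched) and a matched adjusted p of 0.209, or 0.0435 with voom. Without WY-14643 replicate 10 the log2 fold change without pairs was -0.01. That fit kept vehicle replicate 5, the highest vehicle library for Me1, and within pairs the changes were 0.03 to 0.33.

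Neither of the 2 enzymes that build the chain passed in any fit. Acaca, the carboxylase that makes malonyl-CoA, had means of 6.43 ± 2.34 and 6.65 ± 2.61 FPKM, a log2 fold change of 0.03. Fasn, the synthase that assembles palmitate, was between 24.7 and 49.2 FPKM in vehicle and between 28.9 and 56.7 FPKM in WY-14643 libraries, and was higher in 4 of 5 pairs (log2 fold change 0.15 ± 0.21, matched adjusted p = 0.38, limma).

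The desaturases and elongases had 0.27 as the median log2 fold change of 7 genes, 6 of them higher in 5 of 5 pairs. Scd2, a Δ9 desaturase, was the most abundant member of all at 524, 759, 550.2, 343 and 389 FPKM in vehicle and 625, 764, 597, 470.2 and 437 FPKM in WY-14643 libraries. Its paralogue Scd1 was at 39.7, 45.4, 27, 4.72 and 25.5 FPKM in vehicle and 48.2, 62.3, 33.1, 11.7 and 28.9 FPKM in WY-14643 libraries. Vehicle replicate 4 stood far below the rest for Scd1, with its matched WY-14643 replicate 9 next. The log2 fold change of Scd1 was 0.47 ± 0.59 (limma SE, or ± 0.14 in the matched fit with adjusted p = 0.318), the largest of all members. It was -0.05 without vehicle replicate 4, in a fit that kept the low WY-14643 replicate 9. Within the pairs Scd1 changed by 0.28, 0.45, 0.29, 1.16 and 0.17, in order of the vehicle replicate number. Scd3 and Scd4, further paralogues, had means under 0.5 FPKM. How reads that match several paralogues were counted is not given in the sources used here.

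Fads1, the Δ5 desaturase of polyunsaturated fatty acids, was at 4.93, 13, 8.54, 2.41 and 7.87 FPKM in vehicle and 7.8, 15.1, 11, 3.72 and 8.76 FPKM in WY-14643 libraries. It was higher in 5 of 5 pairs (log2 fold change 0.34 ± 0.40; matched adjusted p = 0.135 in limma and 0.0301 with voom). Without vehicle replicate 4 the log2 fold change was 0.06, and without WY-14643 replicate 9 it was 0.60. Fads2, the Δ6 desaturase near it on chromosome 19, was at 44, 55.8, 39.3, 10.05 and 38.4 FPKM in vehicle and 46, 60.4, 47.2, 19.8 and 40.8 FPKM in WY-14643 libraries, with vehicle replicate 4 again far below the rest. Its log2 fold change was 0.29 ± 0.43, and -0.12 without that replicate but with WY-14643 replicate 9 kept. Within the pairs Fads2 changed by 0.06, 0.11, 0.26, 0.91 and 0.09. Elovl6, which extends palmitate, had means of 17.4 ± 5.32 and 20.7 ± 4.68 FPKM, and Elovl1, which makes very long chains, 30.8 ± 3 and 33.9 ± 3.42 FPKM. Both were higher in 5 of 5 pairs. Elovl5, which extends polyunsaturated chains, was at 39.5 ± 9.82 and 39.9 ± 6.56 FPKM and had a log2 fold change of 0.03.

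Neither factor that drives the fatty acid genes passed in any fit. Srebf1 was at 19.2, 24.4, 20.9, 16.8 and 22.5 FPKM in vehicle and 22.3, 23, 22.7, 19.4 and 22.9 FPKM in WY-14643 libraries, a log2 fold change of 0.09 ± 0.10, and it had the second-smallest spread among vehicle libraries of all members. The table gives a value per gene, so the SREBP-1a and SREBP-1c transcripts of Srebf1 are not separated. Mlxipl, which encodes the glucose-responsive factor ChREBP, was at 0.791, 1.29, 1.83, 0.996 and 0.606 FPKM in vehicle and 1.25, 1.16, 1.46, 0.994 and 0.569 FPKM in WY-14643 libraries, with a log2 fold change of 0.0023. Gpam, which commits fatty acids to glycerolipids, had means of 5.01 ± 1.07 and 4.92 ± 0.836 FPKM and was the 1 member with a lower mean on the log2 scale (log2 fold change -0.01). With voom without pairs Mlxipl was at -0.02 and Gpam at 0.01.

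The branches were set side by side without a test, since their members were chosen with earlier results known. The median log2 fold change was 0.15 over the 21 sterol genes and 0.17 over the 16 tested fatty acid genes. All 21 sterol genes and 15 of the 16 fatty acid genes had a higher mean on the log2 scale. In the 5 pairs, in order of the vehicle replicate number, the median change was 0.18, 0.03, 0.10, 0.35 and 0.08 in the sterol branch. It was 0.22, 0.09, 0.19, 0.27 and 0.09 in the fatty acid branch. In both, replicates 4 and 9 differed most, and the pair of replicates 2 and 7 or of replicates 5 and 10 differed least. Without vehicle replicate 4 the medians were 0.05 in each branch, without WY-14643 replicate 7 they were 0.06 and 0.09, and without WY-14643 replicate 9 they were 0.25 and 0.24. The sterol median was 0.29 without vehicle replicate 2 and 0.09 without the pair of replicates 4 and 9. The fatty acid median was 0.14 without that pair.

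**Figure D3:**
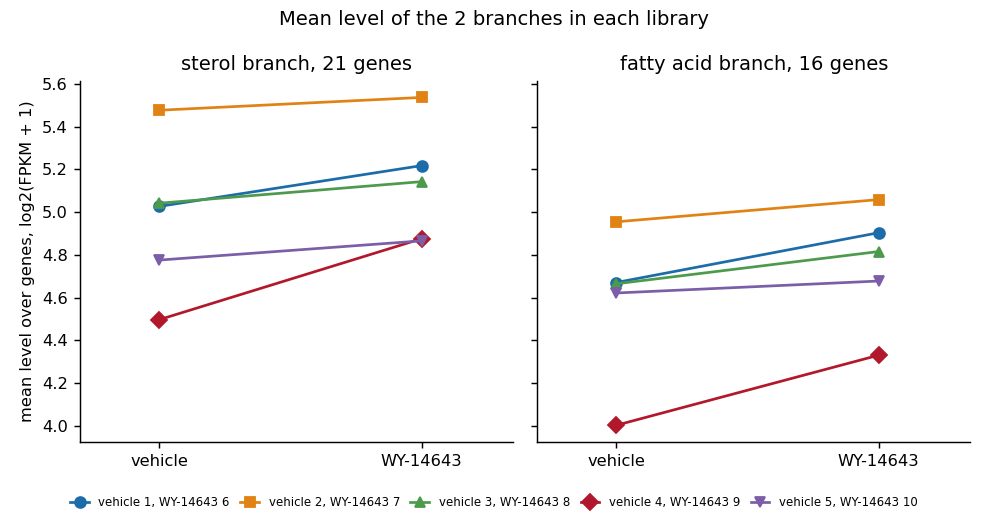
Mean level of the tested members of each branch, as log2(FPKM + 1), in vehicle and WY-14643 libraries, with lines joining matched libraries. All 5 lines slope upwards in both panels, vehicle replicate 2 and WY-14643 replicate 7 are highest, and vehicle replicate 4 is lowest.

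Levels varied widely among libraries of one group. Among vehicle libraries the highest value of a member was 1.30 to 9.63 times its lowest, with a median of 2.22, where the median over all tested genes was 1.70. The ratio was smallest for Elovl1 and largest for Scd1, followed by Acat2 with 6.20, Fads2 with 5.55 and Fads1 with 5.37. Vehicle replicate 2 was the highest vehicle library for 17 of the 21 sterol genes and 8 of the 16 fatty acid genes, and WY-14643 replicate 7 was the highest of its group for the same numbers of genes. Vehicle replicate 4 was the lowest for 12 genes of each branch, and WY-14643 replicate 9 for 10 of each.

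Depth, cycling genes and colonocyte genes also differed between these libraries. Vehicle replicate 2 had the most reads of all (29271304) and vehicle replicate 4 the fewest (15618244), while their partners, WY-14643 replicates 7 and 9, had 16511842 and 17644989. The summed FPKM of 6 stem and cycling genes, 5 of them above the filter, was 38.2 to 172 in vehicle and 45.3 to 160 in WY-14643 libraries, lowest in vehicle replicate 4 and in WY-14643 replicate 9. The summed FPKM of 6 colonocyte markers, 4 of them above the filter, was 28.4 to 961 and 51.2 to 1802, and highest in vehicle replicate 2 and in WY-14643 replicate 9. Car1 carried most of it, with 887 FPKM in vehicle replicate 2 and 1626 FPKM in WY-14643 replicate 9, whereas among vehicle libraries Krt20 was highest in replicate 4, and among WY-14643 libraries Slc26a3 and Ceacam20 were highest in replicate 7. The part of these differences in the members' values was not tested. In bulk samples, fewer cells of a type and less RNA per cell cannot be told apart.

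**Figure D4:**
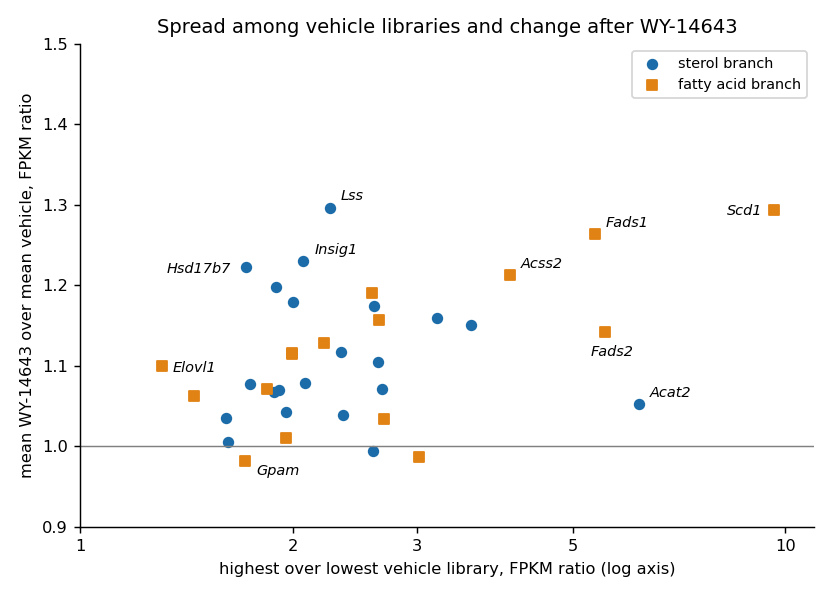
Ratio of the highest to the lowest vehicle library (horizontal, log axis) and ratio of mean WY-14643 to mean vehicle FPKM (vertical) for the 37 tested members, coloured by branch. Horizontal values run from 1.30 for Elovl1 to 9.63 for Scd1. Vertical values reach 1.30 for Lss, and 3 genes lie below 1.

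Other genes of these pathways were read from lists of their own. Of 9 genes that process or retain SREBP, 6 had a higher mean, 0 passed in either limma fit, and the median log2 fold change was 0.04. Insig2, a second anchor of the escort protein, was at 18 ± 1.93 and 18.9 ± 1.8 FPKM, and Rnf139, a ubiquitin ligase of the endoplasmic reticulum, at 5.79 ± 0.646 and 5.34 ± 0.762 FPKM. Of 7 further genes of sterol and isoprenoid synthesis, 3 had a higher mean and 0 passed. Coq2, which works on the isoprenoid tail of ubiquinone, was at 25.9 ± 2.54 and 24.3 ± 1.85 FPKM. Of 16 genes of sterol uptake, storage and efflux, 10 were tested. Of these 10, 7 had a higher mean on the log2 scale, and 0 passed in either limma fit. Lipa, the lysosomal lipase that frees cholesterol from its esters, was at 5.27 ± 1.13 and 7.74 ± 2.41 FPKM and passed only with voom in the matched design (adjusted p = 0.0111).

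Of 26 further genes of fatty acid and glycerolipid synthesis, 19 were tested and 15 had a higher mean on the log2 scale (median log2 fold change 0.06). In the matched limma fit 2 of the 19 rose and 0 fell, where 0.316% of tested genes were called in either direction. They were Acacb, the carboxylase isoform at the mitochondrial surface, at 0.143 ± 0.0988 and 1.59 ± 0.797 FPKM (adjusted p = 0.0481), and Idh1, a cytosolic source of NADPH, at 145 ± 30.9 and 202 ± 39.9 FPKM (adjusted p = 0.0318). Dgat2, which makes triglyceride, was at 8.41 ± 2.93 and 14.8 ± 5.85 FPKM and Acsl3, which activates fatty acids for lipid droplets, at 60.6 ± 20.00 and 92.6 ± 26.4 FPKM, with matched adjusted p of 0.084 and 0.054 in limma. With voom in the matched design 5 of the 19 rose, where 1.4% of tested genes did. These were Acacb, Idh1, Dgat2 (adjusted p = 0.00158), Acsl3 (adjusted p = 7.61e-04) and Pgd, which yields NADPH in the pentose phosphate pathway, at 59.97 ± 11.9 and 68.5 ± 14.4 FPKM (adjusted p = 0.0414). Without pairs 0 of the 19 passed.

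Promoters are shown for 5 of the 6 members that passed with voom in the matched design (not Fads1), because SREBP is known to act on promoters together with NF-Y and Sp1. RefSeq sequences were given for 31 of the 38 members, for build GRCm38.p6 (not for Fdps, Stard4, Sqle, Scd2, Fads1, Scd1 and Fdft1). They were matched by symbol and are in another build than the gene table. The 250 bases before each annotated start were searched on both strands. The motifs were TCACNCCAC (a sterol regulatory element), CCAAT (NF-Y), GGGCGG (Sp1) and CACGTG (an E box). A gene counted when any of its listed starts had a match, so genes with more starts had more chances to match. The first listed start of each gene is printed. Each sequence runs 5′ to 3′ on the strand of its gene and ends at the base before the start. Capitals mark matches to any of the 4 motifs on either strand.
Hmgcs1 (chr13:119690101-119690350, plus strand): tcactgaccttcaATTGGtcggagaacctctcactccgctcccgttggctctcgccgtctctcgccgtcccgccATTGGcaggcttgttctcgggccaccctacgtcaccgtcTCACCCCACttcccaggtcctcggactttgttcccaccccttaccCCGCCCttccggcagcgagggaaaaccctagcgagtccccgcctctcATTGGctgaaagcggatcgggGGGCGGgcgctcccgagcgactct
Lss (chr10:76531355-76531604, plus strand): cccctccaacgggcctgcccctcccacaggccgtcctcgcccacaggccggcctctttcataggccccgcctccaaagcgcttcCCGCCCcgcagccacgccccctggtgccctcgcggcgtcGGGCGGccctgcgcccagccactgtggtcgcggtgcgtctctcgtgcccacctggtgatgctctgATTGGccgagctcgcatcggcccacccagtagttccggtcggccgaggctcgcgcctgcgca
Hsd17b7 (chr1:169969206-169969455, minus strand): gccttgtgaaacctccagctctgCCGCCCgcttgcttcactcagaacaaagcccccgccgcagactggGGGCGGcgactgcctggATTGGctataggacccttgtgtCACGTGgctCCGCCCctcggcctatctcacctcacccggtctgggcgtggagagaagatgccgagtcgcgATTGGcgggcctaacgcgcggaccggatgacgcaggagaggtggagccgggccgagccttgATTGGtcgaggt
Insig1 (chr5:28071162-28071411, plus strand): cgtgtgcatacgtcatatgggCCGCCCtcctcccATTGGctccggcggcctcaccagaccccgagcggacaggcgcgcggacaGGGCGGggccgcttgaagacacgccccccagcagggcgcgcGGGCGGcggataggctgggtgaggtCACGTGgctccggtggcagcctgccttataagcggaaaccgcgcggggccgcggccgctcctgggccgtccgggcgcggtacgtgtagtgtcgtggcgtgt
Me1 (chr9:86695915-86696164, minus strand): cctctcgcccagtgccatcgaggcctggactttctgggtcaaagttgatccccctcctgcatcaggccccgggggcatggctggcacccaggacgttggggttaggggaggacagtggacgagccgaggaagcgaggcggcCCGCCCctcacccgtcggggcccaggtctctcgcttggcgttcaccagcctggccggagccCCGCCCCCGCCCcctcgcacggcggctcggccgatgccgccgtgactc

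TCACNCCAC was found for 2 of the 31 members (6.45%), Hmgcs1 and Mlxipl, and in 1.22% of all 27025 genes in the table. In Mlxipl it lies before another start than the matches to the other 3 motifs. In Hmgcs1 it begins 137 bases before the start. CCAAT was found in 26 members (83.9%), against 37.5% of all genes and 41% of the genes tested here. It was in 16 of 17 sterol and 10 of 14 fatty acid promoters. GGGCGG was in 25 members (80.6%), against 35.4% of all genes and 64.1% of those tested, with 16 of 17 sterol and 9 of 14 fatty acid promoters. CACGTG was in 7 members (22.6%), against 6.86% and 10.1%. Hmgcs1 holds 3 CCAAT matches and Hsd17b7 also 3, Lss and Insig1 1 each, and the first listed start of Me1 none. These are matches of letters in a window and not shown binding sites, and degenerate forms of the elements were not searched.

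By the coordinates of the gene table (build mm39), Lss lies on chromosome 10 from 76367422 to 76392972 (ENSMUSG00000033105), Insig1 on chromosome 5 from 28276361 to 28283660 (ENSMUSG00000045294) and Hsd17b7 on chromosome 1 from 169777104 to 169796810 (ENSMUSG00000026675). Scd2 lies on chromosome 19 from 44282113 to 44295303 (ENSMUSG00000025203) and Scd1 near it from 44382894 to 44396318 (ENSMUSG00000037071). These are whole-gene spans. The spans of 19 members overlap another gene of the table, and for 9 members that gene had a mean of at least 0.5 FPKM. These were Fdft1 with Ctsb, Tm7sf2 with Vps51, Acss2 with Gss, Elovl1 with Cdc20, Cyp51 with Akap9, Srebf1 with Rai1, Lss with 4930483K19Rik, Srebf2 with Gm49502 and Fdps with Gm22935. Whether reads were counted by strand is not given in the sources used here, so reads of opposite-strand neighbours cannot be told apart.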

How the data were processed

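RNA of 10 colon organoid libraries was analysed from 1 table. The authors deposited FPKM per gene. HISAT2 2.0.5 and featureCounts 1.5.0-p3 are named in the submitters' processing notes, with mm39 as the build. For the annotation, the strand setting and the library scaling nothing is given in the sources used here. FPKM multiplied by gene length fell on whole multiples of 1 step per library in 100% of values above 0 (tolerance 0.01 reads), which gave recovered reads. These served for depth and for voom.

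The 13607 genes that averaged 0.5 FPKM or more were tested by limma 3.58.1 in R 4.3.3 on log2(FPKM + 1), a scale that understates changes of low genes (trended, robust eBayes, Benjamini-Hochberg adjustment over all of them, threshold 0.05). The matched fit added the pair as a block, with pairs assigned by the highest total correlation of deviations over genes other than the members. Every matched correlation exceeded 0.1. The fits were also run on simulated counts built from the means of the matched pairs. Such counts take the pairing as given and cannot test it, and their outcome is not used here. Members and lists were chosen with earlier results of these data known. Members received values in every library when called, when among the 4 largest changes or 3 highest levels of their branch, or when regulators. Acat2 was added after its values were seen. From the other lists, called genes and at most 2 others per list with the largest changes were named, except for items that are not reported here. Alternatives were another pseudocount (0.1), no filter, voom, library weights and leaving out libraries or pairs. Applying them to the count of members with a higher mean, to all calls of the matched fit and to its voom form was chosen after seeing the data. Plots used Python 3.11.15 and matplotlib 3.10.9.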

Additional observations from a re-analysis of the deposited data

Results flagged for a closer look

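Dixon's test for a single value far from the other 4 was applied on the log2(FPKM + 1) scale to the 37 tested members in each group, 74 groups of 5 in all, with a critical value of 0.71. Chance flags about 1 in 20 such groups. It marked 6 values, all from the matched libraries vehicle replicate 4 and WY-14643 replicate 9. In vehicle replicate 4 they were low values of Mvk (10.1 FPKM, gap over range 0.733), Acly (34.8 FPKM, 0.755), Scd1 (4.72 FPKM, 0.733) and Fads2 (10.05 FPKM, 0.776). In WY-14643 replicate 9 they were a low value of Srebf1 (19.4 FPKM, 0.816) and a high value of Gpam (6.42 FPKM, 0.889).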

How the results depend on the processing

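The count of members called was 0, and stayed 0 with a pseudocount of 0.1, without the filter, with library weights, with voom without pairs, with the replicate block, and with any library or matched pair left out. With the replicate block and voom together it was 6, and 3 to 7 with a pair left out of that fit. Over all genes the count of calls was 0, and 21 with library weights, 43 with the replicate block and 0 to 2 with a library left out. With the block it was 2 without the filter, 239 with voom and 2 to 33 with a pair left out. The pairs come from the data, not from a label, and the block changed no other call of a member. The count of 36 members with a higher mean ran from 25 to 36 with a library left out and was 32 with library weights. With a library or pair left out, the sterol median ran from 0.053 to 0.29 and the fatty acid median from 0.049 to 0.24. Library weights gave vehicle replicate 3 a weight of 4.35 and WY-14643 replicate 8 one of 3.9, and turned the log2 fold change to -0.0047 for Acat2, -0.033 for Mvk, -0.094 for Idi1 and -0.13 for Mlxipl. Voom gave -0.022 for Mlxipl without the block and -0.021 with it, and 0.012 for Gpam without it. Leaving out libraries changed the sign of 18 members, whose log2 fold changes ranged as follows: Acat2 -0.23 to 0.43, Mvk -0.078 to 0.17, Idi1 -0.20 to 0.14, Sqle -0.0016 to 0.24, Cyp51 -0.050 to 0.26, Msmo1 -0.018 to 0.22, Nsdhl -0.018 to 0.32, Ebp -0.080 to 0.18, Stard4 -0.076 to 0.27, Srebf2 -0.052 to 0.12, Acaca -0.14 to 0.19, Acly -0.058 to 0.24, Scd1 -0.051 to 0.81, Elovl5 -0.078 to 0.16, Fads2 -0.12 to 0.53, Me1 -0.011 to 0.44, Mlxipl -0.088 to 0.12 and Gpam -0.098 to 0.083. The cause was not tested. The other 19 tested members kept their sign with every single library left out. These fits had no pairs and kept the matched partner of the library left out, so the ranges also carry the spread between pairs. Depth limits Thrsp, listed at 0 in 6 of 10 libraries, whereas every tested member had at least 72 reads in every library.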
